A study of Oryza sativa with 72 samples.

Results

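The 100 rows examined here drew the most counts per library total in irrigated rice leaves. They come from a count table of 55986 rows, of which 45767 had a count in at least 1 library. The rows were selected on their measured level: each count was divided by its library's total and given per 1000000 counts (CPM). The 100 rows with the highest mean CPM over the 36 control libraries were kept. CPM is not corrected for transcript length, so abundance below refers to counts and not to numbers of molecules. The table carries no gene identifiers, so each row is called a feature and is known by its line number in the table. No gene name, role, sequence or position is attached to any of them here.

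The plants were of the cultivar IR64, an indica rice, each grown in its own pot of calcined clay. From 14 days after sowing, treated plants went through 9 days of severe drought in raised, draining pots and then 6 days of watering, while control plants stayed irrigated throughout. Leaves of 2 positions, the latest fully expanded leaf and the second latest, were collected from treated and control plants at 6 stages: drought days 0, 6 and 9, then 2 h, 3 days and 6 days after watering resumed (the last are called rehydration 2 h, day 3 and day 6). Each of the 24 groups held 3 libraries. The groups therefore differ in treatment, leaf and stage and share the cultivar, the chamber and the soil.

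Much of the messenger RNA of a green leaf comes from a small number of nuclear genes, and those for the small subunit of Rubisco, the chlorophyll-binding proteins and other parts of photosynthesis are usually among them. Transcripts of that kind are known to follow the time of day and to fall in leaves that lose water, while protective proteins of the drought response are known to rise. Libraries from polyadenylated RNA, as used here, hold little of the chloroplast's own messages. Which of these genes stand behind the rows below is not known from the files.

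Library totals ran from 6370914 to 24192248 counts over 71 libraries, with a median of 13764577. A library of only 1755 counts, treated replicate 2 of the latest leaf at drought day 9, was left out, so that group rests on 2 libraries. Separate plants are not stated as the source of the replicates, and p-values cover only the library-to-library spread, part of which may be technical. All 100 rows passed the low-count filter of the tests, and none was at 0 in any library used.

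Feature 46775 was the most abundant, with a mean of 16266 CPM over the control libraries, and it was also steady at most stages. Feature 3518 followed at 12488 CPM, but its level ran from 654 to 34535 CPM among irrigated plants. Feature 892 averaged 11788 CPM, feature 15934 9135 CPM, feature 1706 9074 CPM and feature 36 8021 CPM. Features 51291, 47025, 40972 and 53919 completed the 10 most abundant, with means of 7823, 7202, 7074 and 6585 CPM. At the lower end the set has no natural border. Features 41502 and 52354, at ranks 99 and 100, averaged 1018 and 1011 CPM, and features 49001 and 42681, the next rows below them and not members, averaged 994 and 967 CPM.

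**Figure D1:**
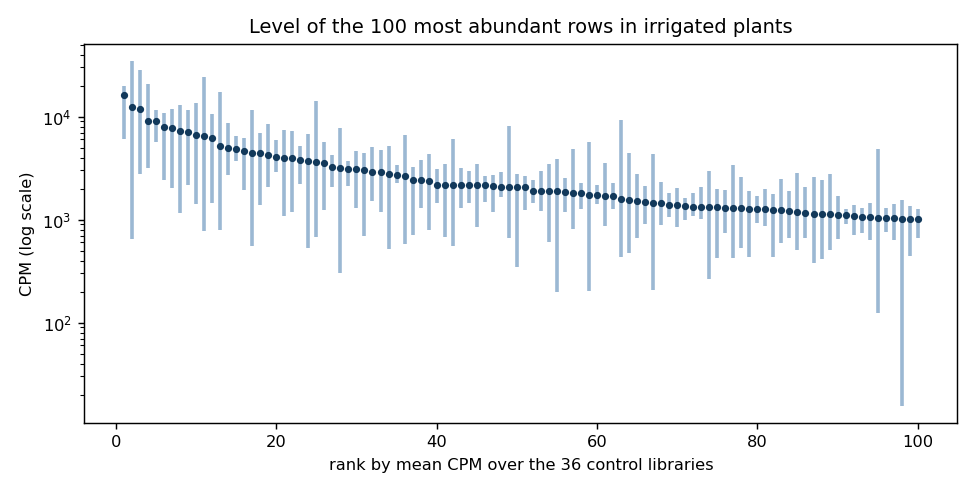
Mean CPM of each of the 100 rows (points) with the lowest and highest of the 36 control libraries (bars), by rank, on a log scale. Means fall from 16266 CPM to 1011 CPM, and the bars differ widely in length between rows of like mean.

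Much the same rows led in treated plants. Ranking on the treated libraries of all stages, day 0 and rehydration included, gave 96 of the same 100 rows and the same 10 leaders. In treated plants at drought days 6 and 9, 83 to 92 of the rows were among the group's own 100 most abundant. At day 9 feature 892 led the treated plants in both leaves, while feature 3518 led the controls of the latest leaf and feature 892 those of the second. Within single groups, 81 to 97 of the rows were among that group's own 100 most abundant, with the lowest number in irrigated plants at drought day 9 in the latest leaf. A ranking on the controls of the latest leaf alone shared 94 rows, as did one on the controls of the second latest leaf.

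Together the 100 rows took between 19.7% and 40.9% of all counts in a library, with a median of 29.1%. The 10 most abundant alone took 5.46% to 13.1%. In irrigated plants the latest leaf gave the rows a larger share, 31.8% ± 4.22 (SD, n = 18 libraries), than the second latest leaf, 27.6% ± 3.25 (n = 18). These libraries pool all stages, so the SDs include differences between stages, and the pooled ranges overlapped. Within every stage the control mean was higher in the latest leaf. The control libraries of the leaves did not overlap at drought days 0 and 9 and overlapped at the other stages.

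Leaf position mattered little to most single rows. In irrigated plants 58 were higher in the latest leaf, and 95 lay within 2-fold between leaves. The rows beyond 2-fold, named after their values were seen, were features 3518, 15774, 15940 and 32480, which were higher in the latest leaf, and feature 6388, which was higher in the second latest leaf. Feature 3518 averaged 17253 CPM (SD 10028) in the latest leaf and 7722 CPM (SD 5261) in the second latest leaf. Feature 6388 was the row whose control libraries did not overlap between leaves, with 523 to 2714 CPM in the latest leaf and 2780.1 to 5233 CPM in the second latest leaf.

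The rows differed greatly in steadiness. The coefficient of variation over the 36 control libraries had a median of 27.8% and was under 20% for 30 rows and over 50% for 16 rows. Feature 40489 was the steadiest at 8.42%, followed by features 14937 at 9.96% and 43831 at 10.2%. Feature 14184 was the most variable at 143%, followed by features 10637 at 106%, 32480 at 99.6%, 1518 at 78.8% and 15774 at 76.1%. Feature 3518 came close to these, at 74.1%.

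For several of these rows the variation lay between stages of the irrigated plants themselves. In controls of the latest leaf, feature 14184 stood at 861, 531 and 468 CPM at drought day 6, at 6766, 6303 and 3386 CPM at day 9 and at 699.7, 766 and 623 CPM at the 2 h stage. The day 9 libraries lay above all the others, in treated plants too, where they read 9822 and 6416 CPM. Feature 10637 had the same course, with 6717, 7803 and 4287 CPM at day 9 against 1408, 1152 and 918 CPM at day 6 in these controls. Feature 4298, named after its values were seen, went the other way, from 794, 1225 and 1297 CPM at day 6 to 15.7, 70.9 and 85.1 CPM at day 9.

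The most abundant row also fell at that stage in plants that were never stressed. Feature 46775 averaged 16840.1 ± 1238 CPM (SD, n = 3) in latest-leaf controls at day 6, 8166 ± 1793 CPM at day 9 and 17668 ± 1436 CPM at the 2 h stage. Treated plants gave 8204 ± 3253 CPM (n = 2) at day 9, a mean close to that of the controls with a wider spread between libraries.

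Counted over all rows, the day 9 controls of the latest leaf had 14 rows at least 2-fold above and 10 at least 2-fold below the mean of the day 6 and 2 h controls, and those of the second latest leaf had 11 and 7. The control groups on either side were alike: all 100 rows lay within 2-fold between day 6 and the 2 h stage in both leaves. Drought day 9 was compared only with its own day 9 controls below. What set that stage apart in irrigated plants was not tested.

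During drought the share of counts held by the 100 rows fell below that of irrigated plants. At drought day 9 the latest leaf held 31.5% and 27.9% in the treated libraries and 36.8%, 32.7% and 40.9% in the controls. The treated mean differed by -7.08 percentage points, 29.7% ± 2.53 (SD, n = 2) against 36.8% ± 4.09 (n = 3), and the groups did not overlap. At drought day 6 the treated latest leaf stood at 26.6%, 28.7% and 26.4% and its controls at 34.6%, 29.0% and 29.0%, a difference of -3.62 points without overlap. Since the libraries hold polyadenylated RNA of whole leaves, fewer cells of a type and less RNA per cell cannot be told apart.

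In the second latest leaf the clearest loss came at day 6. The treated libraries held 21.2%, 24.7% and 21.8% and the controls 30.0%, 26.8% and 26.7%, so the groups did not overlap and the means differed by -5.27 points. At day 9 the difference was -2.88 points, 27.5% ± 1.77 against 30.3% ± 1.57 (n = 3 each), and the groups overlapped. Plants that had not yet been stressed differed as well in the latest leaf: at day 0 the treated share was 32.4% ± 0.372 and the control share 34.9% ± 1.99, which did not overlap, while in the second latest leaf the means differed by -0.168 points.

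After watering resumed, treated means lay below the controls at 2 h and above them at rehydration days 3 and 6. At 2 h the difference was -3.15 points in the latest leaf and -4.05 points in the second latest leaf, with overlapping groups in both. At rehydration day 3 the treated means were 1.21 and 1.95 points above the controls, with overlap, and the sign changed without treated replicate 2 in the latest leaf (-0.319 points) and without control replicate 3 in the second latest leaf (-1.38 points). At rehydration day 6 the treated second latest leaf held 33.2%, 28.9% and 30.5% against 27.4%, 25.4% and 22.3% in controls. These groups did not overlap, and the means differed by 5.84 points. In the latest leaf the difference was 6.61 points, 33.7% ± 4.25 against 27.1% ± 3.05, with overlap through treated replicate 2 at 29.2%.

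**Figure D2:**
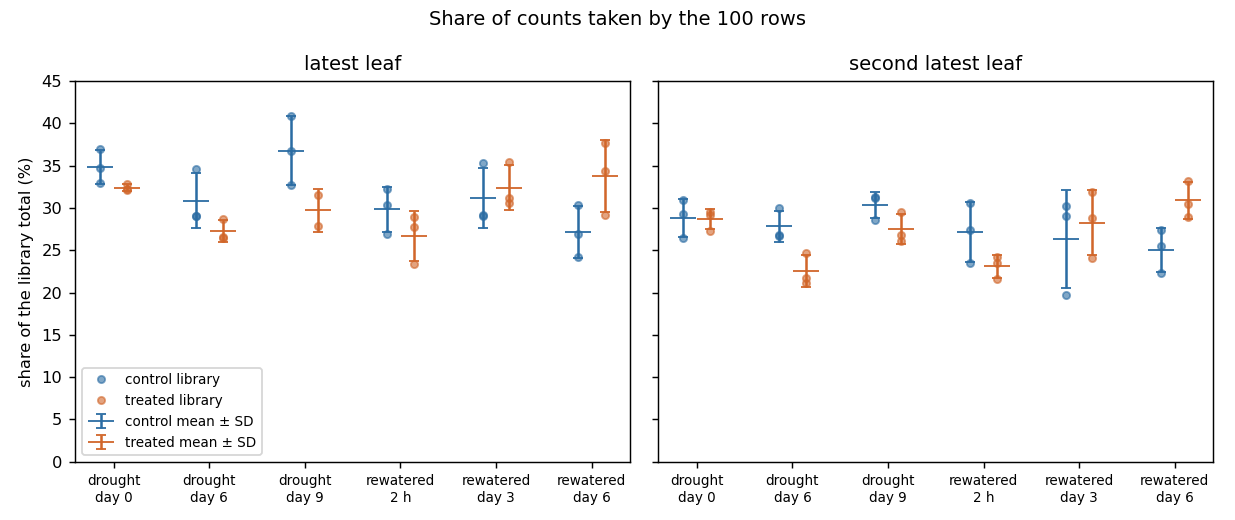
Share of each library's counts taken by the 100 rows, in percent, by stage and leaf. Points are libraries and bars are mean ± SD (n = 3, or 2 for treated drought day 9 in the latest leaf). Treated libraries lie below controls at drought days 0, 6 and 9 in the latest leaf and at day 6 in the second latest leaf, and above them at rehydration day 6 in the second latest leaf.

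A limit of these differences is that the control libraries chose the rows and are also an arm of every comparison. This favours lower values in treated plants, also in the fitted values and calls given below. With the 100 rows chosen on the treated libraries instead, the differences were -6.86 points at day 9 in the latest leaf, -5.00 points at day 6 in the second latest leaf, and 6.61 and 5.76 points at rehydration day 6 in the latest leaf and in the second.

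Features 3518 and 892 took large parts in these shifts. Feature 3518 led at several stages and accounted for -1.70 of the -7.08 points at day 9 in the latest leaf, for -0.716 of the -5.27 points at day 6 in the second latest leaf, and for 1.21 and 0.992 of the points gained at rehydration day 6 in the latest leaf and in the second. Feature 892 led in the second latest leaf at day 9, with -1.05 of the -2.88 points, and at 2 h, with -0.386 points in the latest leaf and -0.547 in the second. Other rows took part as well. Without the 10 most abundant rows in either part of the ratio, the differences were still -5.38 points at day 9 and -3.53 points at day 6 in these same leaves.

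The libraries show how uneven feature 3518 was. At day 9 the latest leaf read 28925, 9710.3 and 34534 CPM in controls and 10469.7 and 4276 CPM in treated plants, so the ranges overlapped. At day 6 the second latest leaf read 14868, 2801 and 7529.5 CPM in controls and 181, 2835 and 711 CPM in treated plants, where the lowest control lay below the highest treated library. At rehydration day 6 that leaf read 5153, 4525 and 1278 CPM in controls and 19205, 8443 and 13081 CPM in treated plants, and the groups were apart.

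Despite their size, none of these differences of feature 3518 passed the test. The test was edgeR's quasi-likelihood test across all features, with Benjamini-Hochberg adjustment, and a feature with an adjusted p under 0.05 is said to be called. The fitted log2 fold change of treated over control was -2.01 (SE 0.854, adjusted p = 0.116) at day 9 in the latest leaf, -2.90 (SE 1.06, adjusted p = 0.147) at day 6 in the second latest leaf and 2.12 (SE 1.03, adjusted p = 0.29) at rehydration day 6 in that leaf. Features 44121 and 45917 were the rows whose CPM followed feature 3518 most closely, with Spearman correlations of 0.968 and 0.967 over 71 libraries, which share depth and scaling between the rows.

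The other leaders had weaker companions. Feature 46775 was followed best by features 44215 (Spearman correlation 0.687) and 1706 (0.652), and feature 892 by features 46295 (0.711) and 4374 (0.710), over the same 71 libraries. Features 15934 and 15940, which lie 6 lines apart in the table, had a correlation of 0.948, and the adjacent rows 48105 and 48106 one of 0.492. Whether such neighbours share reads could not be checked without identifiers.

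Feature 892 followed a course of its own. At drought day 0 the latest leaf already read 13268, 11721 and 13758 CPM in the plants assigned to treatment and 5773, 7368 and 7514 CPM in controls. At 2 h after watering the second latest leaf read 7879, 7784 and 7271 CPM in treated plants and 11811, 13666 and 13867 CPM in controls, and at day 9 14737, 11871 and 12384 against 22241, 28473 and 19876 CPM. In each of these sets the groups were apart, though feature 892 was called in none of the 12 comparisons of treated with control plants.

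**Figure D3:**
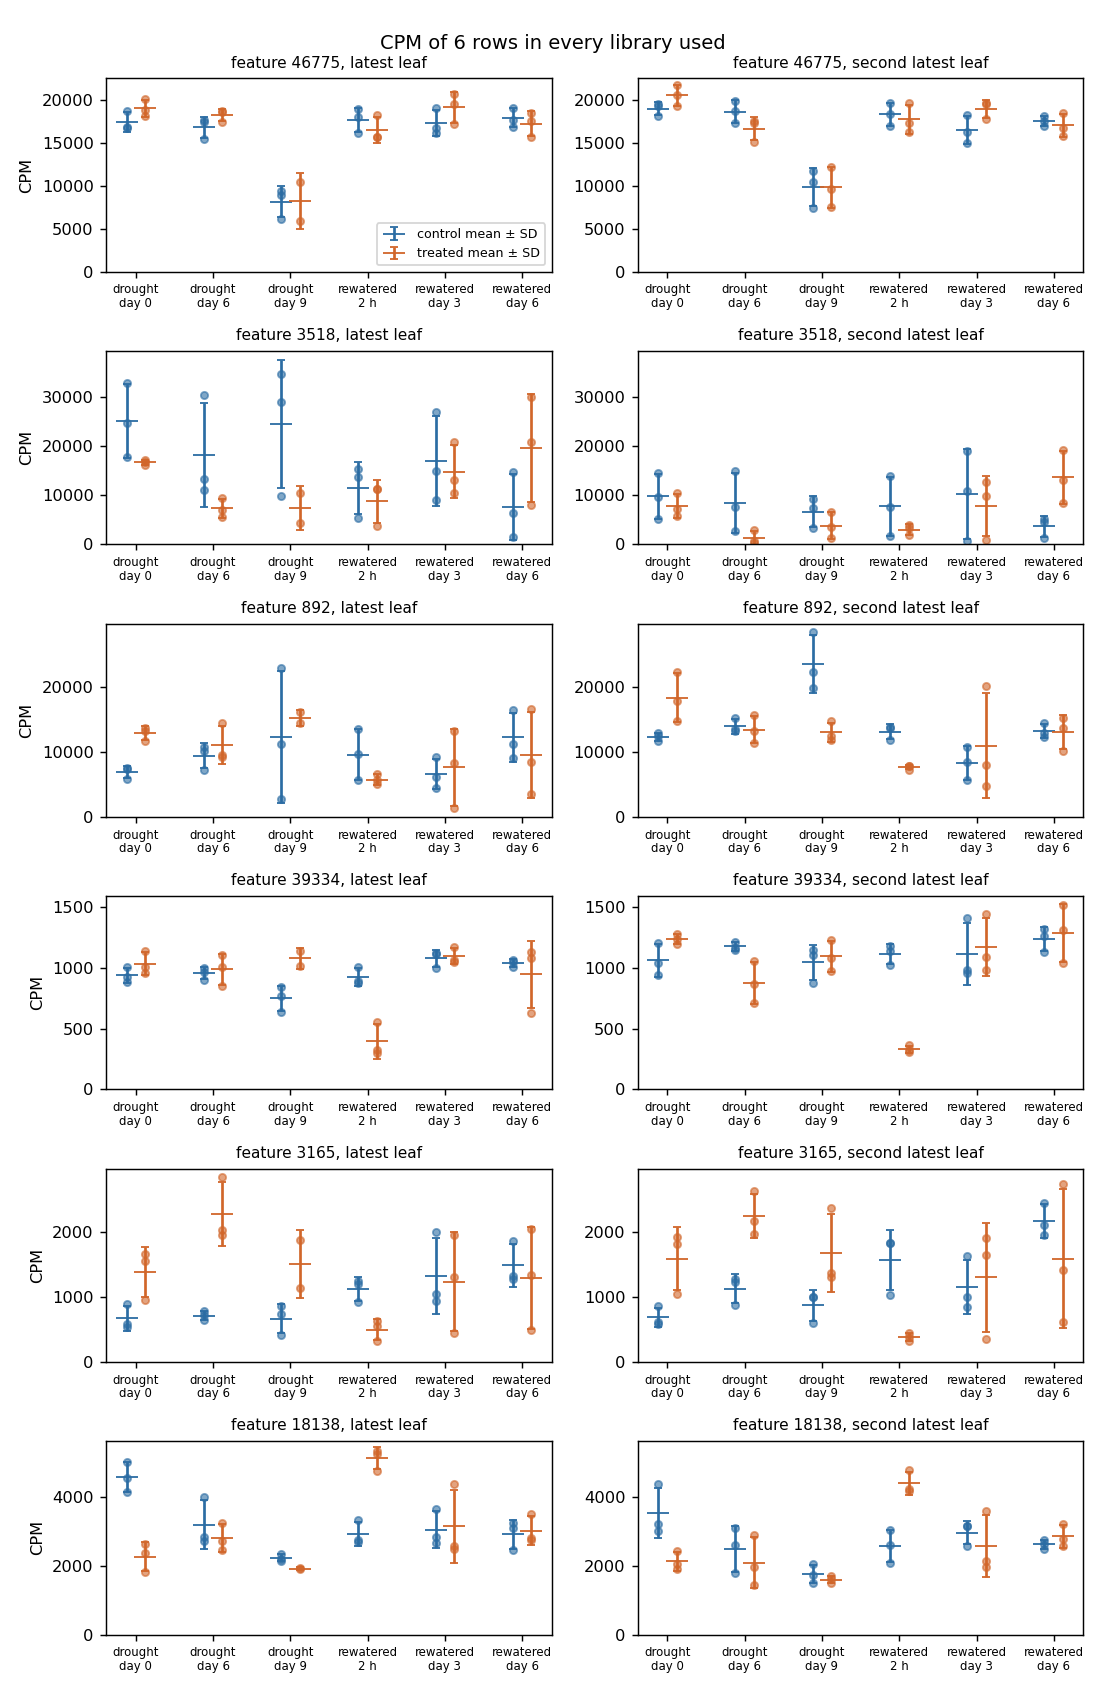
CPM of features 46775, 3518, 892, 39334, 3165 and 18138 in every library used, by stage, for the latest leaf (left) and the second latest leaf (right). Points are libraries and bars are mean ± SD. Feature 46775 is low at day 9 in both treatments, feature 3518 varies within groups, and features 39334 and 3165 are low in treated plants at 2 h.

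None of the 10 most abundant rows was called by edgeR in any of the 12 comparisons of treated with control plants. At an unadjusted p under 0.05, 3 of them passed at day 9 in the latest leaf, 5 at day 6 in the second latest leaf, and 6 and 3 at rehydration day 6 in the latest leaf and in the second. Over all features, 6020 of 21037, 3621 of 20950, 2756 of 21037 and 3579 of 20950 passed in these comparisons. DESeq2, the other tool run, called 3 of the 10 lower at day 9 in the latest leaf and 3 lower at 2 h in the second latest leaf, and at most 1 in any other comparison. Shares over all features were not counted for DESeq2 or for fits that left out a library.

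**Figure D4:**
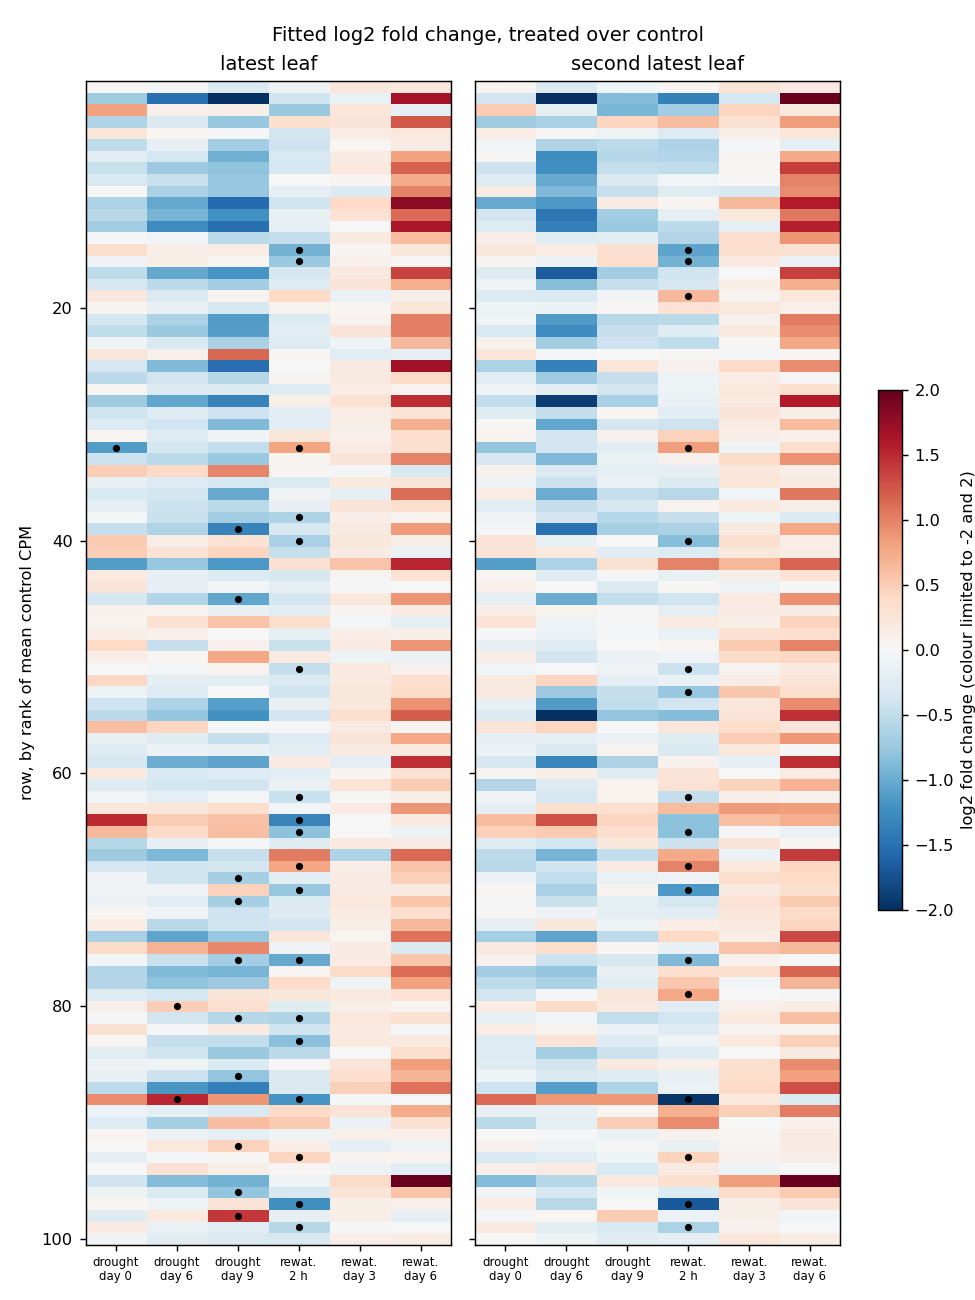
Fitted log2 fold change of treated over control for the 100 rows (by rank, top to bottom) at the 6 stages in both leaves. Colours stop at -2 and 2, and black dots mark rows called at an adjusted p under 0.05 (edgeR). Blue dominates at drought days 6 and 9 and red at rehydration day 6, while most dots lie at 2 h.

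At drought day 0, before stress, 1 row was called in the latest leaf and none in the second latest leaf. Feature 18138 read 2371, 2627 and 1821 CPM in the plants assigned to treatment and 5025, 4150.0 and 4565 CPM in controls, with no overlap. Its log2 fold change was -1.12, and the call was lost when any single library of the comparison was left out. Over all 21037 features tested in that leaf, 0.532% were called lower and 0.385% higher at this stage. In the second latest leaf 0% were called in either direction over 20950 features, and DESeq2 called no row. An unadjusted p under 0.05 was found for 5 of the 100 rows and for 2190 of all features.

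At drought day 6 most rows leaned down in both leaves, and those that passed the test went up. Of the 100 fitted values of the latest leaf 78 were negative with a median of -0.27, beside a median of 0.0034 over all features. The number depends on the scaling: by mean CPM, which uses library totals alone, 66 rows were lower in treated plants. Features 3165 and 33089 were called higher and no row was called lower, where 2.53% of all features were called higher and 1.81% lower. Feature 3165 read 2846, 1948 and 2030.4 CPM in treated plants and 778, 725 and 639 CPM in controls, so every treated library was above every control. Its log2 fold change was 1.51 (SE 0.401, adjusted p = 0.0308).

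Feature 33089 read 2041, 1738 and 1597 CPM in treated plants and 1151, 1229 and 1079 CPM in controls at that stage, also apart, with a log2 fold change of 0.49 (SE 0.135, adjusted p = 0.0373). Leaving out any single library of the comparison left 0 or 1 of these 2 calls. Feature 3165 was already higher on day 0 in the plants assigned to treatment, at 1663, 950.0 and 1552 CPM against 579, 896 and 545 CPM, without a call.

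In the second latest leaf at day 6, 81 of 100 fitted values were negative with a median of -0.35. By mean CPM 69 rows were lower in treated plants. An unadjusted p under 0.05 was found for 41 rows and for 3621 of 20950 features. No row was called by edgeR, where 1.02% of all features were called higher and 0.749% lower. DESeq2 called 2 higher and 6 lower, and edgeR did the same without treated replicate 2.

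At drought day 9 the latest leaf had 10 called rows, 2 higher and 8 lower, where 5.87% of all features were called higher and 6.82% lower. DESeq2 called 3 rows higher and 24 lower at this stage, so the number called depends on the tool. The median log2 fold change of the 100 rows was -0.38, beside -0.0026 over all features, and 72 of 100 were negative.

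The largest called fall was that of feature 38708, at 1779 and 1292 CPM in the 2 treated libraries and 3251, 1976 and 4305 CPM in controls. The groups were apart by a narrow margin, and the log2 fold change was -1.34 (SE 0.42, adjusted p = 0.0346). Feature 28426 read 1917 and 1566 CPM against 3072, 2355 and 3444 CPM, again with every treated library below the controls, and had a log2 fold change of -1.05 (SE 0.334, adjusted p = 0.0385). Feature 25078 was steadier, at 821 and 888 CPM against 1238, 1119 and 1293 CPM. Its log2 fold change was -0.79 (SE 0.196, adjusted p = 0.0103).

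In the other direction feature 24661 read 1093 and 1358 CPM in treated plants and 709, 784 and 710.4 CPM in controls, with a log2 fold change of 0.46 (SE 0.133, adjusted p = 0.0224). Feature 4298 was also called higher at 1.41, but it was near its lowest level at this stage, and its treated libraries (78.8 and 301 CPM) overlapped the controls (15.7, 70.9 and 85.1 CPM). The count of 10 depended on single libraries: it was 24 when control replicate 2 was dropped and 3 when control replicate 3 was, and dropping treated replicate 1 or 3 left 1 and 0. It also depended on scaling, since library totals alone gave 8 rows higher and 7 lower in place of 2 and 8. That scaling moved the median of all features by 0.27, and the rows' median of -0.11 remained below it.

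The second latest leaf had no called row at day 9, where 1.22% of all features were called higher and 1.69% lower. There 7 rows and 3751 of 20950 features had an unadjusted p under 0.05, and DESeq2 called 2 rows lower. The median log2 fold change of the rows was -0.14 with 70 of 100 negative, and by mean CPM 61 rows were lower in treated plants. Whether the response at day 9 differed between the leaves was tested directly across 21824 features. No row was called and 0% of all features were called in either direction, and DESeq2 called no row. An unadjusted p under 0.05 was found for 9 rows and for 1832 features.

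Most calls came 2 h after watering resumed. The latest leaf had 18 called rows, 3 higher and 15 lower, where 7.89% of all features were called higher and 5.18% lower. The second latest leaf had 17, 5 higher and 12 lower, where the background was 12.8% higher and 8.42% lower. The share of rows called lower was above the background in both leaves, and the share called higher was below it. The choice of rows on these controls favours such a lean, and the rows have higher counts than most features. What lay behind the difference from the background was not tested.

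The calls were largely of the same rows. Whether both leaves came from the same plants is not stated, so the lists of the leaves may not be independent. All 3 rows called higher in the latest leaf were among the 5 of the second latest leaf. Of the rows called lower, 11 were shared, which is 73.3% of the list of the latest leaf and 91.7% of that of the second latest leaf. These were features 3165, 7891, 28388, 30678, 39334, 41502, 42712, 43282, 43720, 51820 and 54718, and the rows called higher in both were 18138, 34138 and 39356. Tested directly, no row had a response at 2 h that differed between the leaves, with 0% of features called in either direction. DESeq2 called no row, and 3 rows and 824 of 21824 features had an unadjusted p under 0.05. The largest differences between leaves were -0.73 and 0.96 on the log2 scale.

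**Figure D5:**
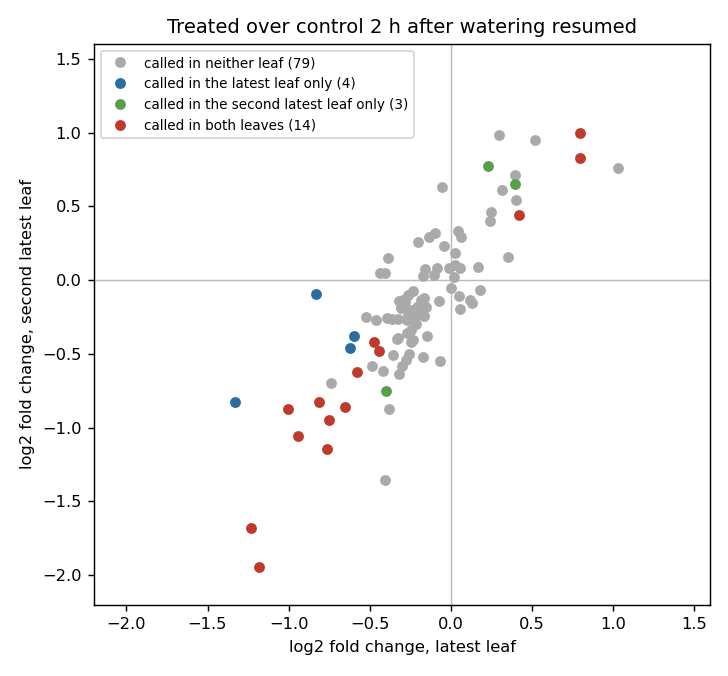
Fitted log2 fold change of treated over control 2 h after watering, in the latest leaf (horizontal) and the second latest leaf (vertical), for the 100 rows. Red points were called in both leaves, blue and green points in a single leaf. Among points called in both leaves are feature 3165 at -1.18 and -1.95, feature 39334 at -1.23 and -1.68 and feature 39356 at 0.79 and 1.00.

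Feature 39334 had the smallest adjusted p of the rows in both leaves. In the latest leaf it read 327, 298 and 556 CPM in treated plants and 894, 871 and 1008 CPM in controls, and in the second latest leaf 321, 304 and 362 CPM against 1023, 1140.4 and 1176 CPM. Treated libraries were far below every control, with log2 fold changes of -1.23 (SE 0.179, adjusted p = 6.25e-05) and -1.68 (SE 0.195, adjusted p = 1.06e-06). At day 9 of drought, the stage just before, the same row had read 1014 and 1137 CPM in treated plants and 841, 765 and 638 CPM in controls of the latest leaf, and by rehydration day 3 treated and control libraries overlapped again.

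Feature 3165, which was called higher at drought day 6 in the latest leaf, was called lower 2 h after watering in both leaves. At 2 h it read 548, 324 and 626 CPM against 920.3, 1249.9 and 1201 CPM in controls of the latest leaf and 317, 380.4 and 440.1 CPM against 1036, 1836 and 1826 CPM in the second latest leaf. The groups were apart in both, with log2 fold changes of -1.18 (SE 0.397, adjusted p = 0.0479) and -1.95 (SE 0.404, adjusted p = 0.000837). This call of the latest leaf was lost when any of 5 of its 6 libraries was left out and with library totals alone, and in the second latest leaf it held under all 13 alternatives run.

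Feature 7891 fell by 1.00 on the log2 scale in the latest leaf (SE 0.188, adjusted p = 0.000816), from 1438, 1399.8 and 1184 CPM in controls to 669, 577 and 785 CPM in treated plants. Feature 30678 fell in the second latest leaf by 1.14 (SE 0.259, adjusted p = 0.00193), from 1439.7, 1542 and 1554 CPM to 689.6, 607 and 651 CPM. Both sets of libraries were apart. Feature 4374, named after its values were seen, had the largest fitted fall of the latest leaf at -1.33 (adjusted p = 0.0387), though its treated libraries overlapped the controls, and on day 0 it had stood at 1.49 without a call.

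Of the rows called higher, features 39356 and 18138 had the largest fitted values in both leaves. Feature 39356 read 2824, 3306 and 2839 CPM against 2034, 1489 and 1580.3 CPM in the latest leaf and 2429.6, 2575 and 2379 CPM against 1364, 1153 and 1377 CPM in the second latest leaf, apart in both, with log2 fold changes of 0.79 (adjusted p = 0.0431) and 1.00 (adjusted p = 0.017). Feature 18138, which had been lower at day 0 in plants assigned to treatment, now read 4778, 5358 and 5272 CPM against 3345, 2748 and 2695 CPM in the latest leaf. Its log2 fold changes were 0.79 (adjusted p = 0.0388) and 0.83 (adjusted p = 0.0348) in the latest leaf and in the second. For both rows the call of the latest leaf was lost when any of 5 of its 6 libraries was left out. In the second latest leaf the call of feature 18138 was lost in 5 such fits and that of feature 39356 in 2.

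Feature 34138 moved less but was steadier, at 1407, 1465 and 1382 CPM against 1044, 1009 and 1096 CPM in the latest leaf, with a log2 fold change of 0.42 (adjusted p = 0.00403). Feature 47650 was called in the second latest leaf, at 2083, 2119 and 2377 CPM against 1402, 1234 and 1427 CPM and 0.77 (adjusted p = 0.01). Controls and treated libraries were apart for both rows.

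The ranks of the rows called at 2 h ran from 15 to 99 in both leaves. Of the 20 most abundant rows, 2 were called in the latest leaf and 3 in the second. The called rows held 3.47% and 3.56% of control counts in all. Counts depended on libraries in the latest leaf, where dropping control replicate 2 or 3 left 9 and 10 rows and dropping treated replicate 1 or 2 left 8 and 6. Without control replicate 2, the second latest leaf had 10.

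The change of response between day 9 of drought and 2 h of watering was tested within each leaf. It sets treated over control at 2 h against treated over control at day 9, whose controls stood apart from those around them. How much of a change lay in the controls was not tested. By edgeR, 4 rows of the latest leaf changed their response downward, and none upward, where 0.642% of all features changed downward and 1.2% upward. The second latest leaf had 7 downward and none upward by edgeR, where the background was 2.49% and 4.95%. DESeq2 also called rows upward, with 2 higher and 8 lower in the latest leaf and 2 higher and 7 lower in the second. Feature 39334 changed by -1.49 (SE 0.263, adjusted p = 0.00197) in the latest leaf and by -1.67 (SE 0.27, adjusted p = 0.000333) in the second.

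Feature 3165 had the largest called change of the second latest leaf, -2.82 (SE 0.562, adjusted p = 0.00258). It read 1361, 1303 and 2374 CPM in treated plants and 596, 1005 and 1006 CPM in controls at day 9, and was the lower of the groups 2 h after watering. Feature 42712, at rank 15, changed by -1.37 (SE 0.317, adjusted p = 0.00795) in the same leaf. It read 5506, 5199.5 and 9672 CPM against 4767, 5130.0 and 5557 CPM at day 9 and 2395, 2097 and 2685 CPM against 5231, 5454 and 5024 CPM at 2 h, so that only the later stage was apart from controls.

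Features 54718 and 30678 changed in the latest leaf, by -1.42 (SE 0.311, adjusted p = 0.0131) and -1.22 (SE 0.31, adjusted p = 0.0356). Feature 54718 read 1153 and 1863 CPM against 735, 1071 and 661 CPM at day 9 and 907, 519.6 and 660.1 CPM against 924, 1372 and 1326 CPM at 2 h. The 4 calls of that leaf became 1 without treated replicate 3 of day 9 or treated replicate 2 of 2 h, and 2 without control replicate 3 or treated replicate 1 of 2 h. The 7 calls of the second latest leaf became 3 without treated replicate 3 of day 9.

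By rehydration day 3 no row was called in either leaf. Of all features 0% were called in the latest leaf, and in the second latest leaf 0% were called higher and 0.00477% lower, which is 1 feature. No row of the latest leaf and 6 of the second latest leaf had an unadjusted p under 0.05, and DESeq2 called none in either leaf. Over all features, 1185 of 21037 and 2132 of 20950 had such a p. Fitted values leaned upward, with medians of 0.16 and 0.19 and with 80 and 83 of 100 positive. By mean CPM 66 and 73 rows were higher in treated plants.

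At rehydration day 6 the lean was stronger and still not called. Fitted log2 fold changes were positive for 87 of 100 rows with a median of 0.34 in the latest leaf, and in the second for 91 of 100 with a median of 0.39, beside medians of -0.0069 and -0.014 over all features. For the latest leaf edgeR called no row and 0% of all features in either direction. There 45 rows and 2756 of 21037 features had an unadjusted p under 0.05, and DESeq2 called 27 rows, all higher. For the second latest leaf edgeR again called no row, where 0.239% of all features were called higher and 0.248% lower. In that leaf 37 rows and 3579 of 20950 features had an unadjusted p under 0.05, and DESeq2 called 7 rows, all higher.

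These counts depended on treated replicate 2. Without it edgeR called 23 rows in the latest leaf and 4 in the second latest leaf, all higher. The share called over all features was not counted for these fits. For feature 3518 the treated libraries of the latest leaf read 29962, 8039 and 20721 CPM and the controls 14725, 6292 and 1539 CPM, so that treated replicate 2 lay among the controls. Feature 15774 read 16992, 2649 and 11259 CPM in treated plants of that leaf against 4692, 4506 and 1999.8 CPM in controls, and again treated replicate 2 was the library among the controls.

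The size of the upward lean depends on the scaling. Library totals alone moved the median of all features by -0.26 in the latest leaf and -0.23 in the second latest leaf. The rows' medians were then 0.07 and 0.16, with 56 and 62 of 100 positive, and remained above the median of all features.

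Fitted signs during drought and at the end of watering stood as follows. There were 68 rows with a negative fitted value at both day 6 and day 9 in the latest leaf, and 67 of these were positive at rehydration day 6. The second latest leaf had 61 and 58. These signs are of fitted values and not of calls. Of all 100 rows, which include these, 87 and 91 were positive at rehydration day 6, or 56 and 62 with library totals alone. Whether rows that leaned down earlier differed from the rest was not tested. The comparisons use different libraries at each stage.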

How the data were processed

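Sequencing covered 72 libraries of polyadenylated RNA prepared with a strand-preserving kit, per the labels. The deposited values are raw read counts per row, which the authors did not scale. The submitters' processing notes name STAR, featureCounts 2.0.0 and the genome build IRGSP-1.0. The annotation and the counting options are not given in those notes, and rows that share reads with a copy or an antisense partner could not be recognised.

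CPM was computed from each column total. The 100 rows, the lists and the tests were chosen with earlier results of these data known. 1 library with a total under 2000 counts was dropped. Total counts of the 71 others ran from 6370914 to 24192248, so 3 counts equal 0.124 to 0.471 CPM, which covers counting error only.

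Tests were run in R 4.3.3 with edgeR 4.0.16 (filterByExpr, TMM, glmQLFit, glmQLFTest) for each leaf over its 6 stages, and over 71 libraries for comparisons between leaves. Benjamini-Hochberg adjustment ran over all features tested, with a threshold of 0.05. The scripts were tested on simulated data. Alternatives covered DESeq2 1.42.0, other scalings, no low-count filter, the dropped library kept, the replicate block, the compared libraries alone, each library left out in turn and other rankings of the rows.

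Named rows are the 10 of highest mean, those beside the limit at rank 100, up to 3 called rises and 3 called falls without overlap at drought days 6 and 9 and at 2 h in each leaf, the 3 largest called changes between day 9 and 2 h, the 5 most and 3 least variable rows, and the 2 closest companions of each of the 3 leaders. Others are named as chosen after their values were seen.

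Of 70 replicate pairs 0 were identical. Their chi-square per degree of freedom was at least 6.53, so each library was kept as its own sample. To see whether replicate numbers pair libraries, correlations were taken between same-numbered libraries' deviations from their group means. At 2 h all pairs of the latest with the second latest leaf correlated above 0.1 (0.17 to 0.34). The same held at drought days 0 and 6, where these pairs ran from 0.16 to 0.38. At the other stages the lowest pair was below 0.1. The numbers may therefore pair the leaves, which the labels do not state. With the replicate block no row was called in the comparison between leaves at 2 h either (0 rows).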

Additional observations from a re-analysis of the deposited data

Results flagged for a closer look

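The response of several rows differed between drought day 9 and 2 h after watering, as tested by an interaction term in edgeR's quasi-likelihood fit across all features. By edgeR there were 4 called rows of the 100 in the latest leaf and 7 in the second, all toward lower values at 2 h. Of all features, 0.642% changed downward and 1.2% upward in the latest leaf, and 2.49% and 4.95% in the second. DESeq2 also called 2 rows upward in each leaf. The day 9 controls, which stood apart as given above, are part of this test. Feature 39334 changed by -1.49 on the log2 scale in the latest leaf (SE 0.263), feature 54718 by -1.42 (SE 0.311) and feature 30678 by -1.22 (SE 0.31). Feature 3165 changed in the second latest leaf by -2.82 (SE 0.562), feature 39334 by -1.67 (SE 0.27) and feature 42712 by -1.37 (SE 0.317).

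The 3 named changes of the second latest leaf held under all 19 alternatives run, while the count of 7 became 3 without treated replicate 3 of day 9. In the latest leaf, where treated plants at day 9 gave 2 usable libraries, feature 39334 lost its call under 2 of 19 alternatives, feature 54718 under 4 and feature 30678 under 11. Groups of 3 libraries were too small to be searched for single libraries that stand apart.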

How the results depend on the processing

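No result changed direction past the threshold, and all 119 alternative values of the 12 share differences stayed within the spread between replicates. The sign of a share difference turned at rehydration day 3, as given above, and at day 0 in the second latest leaf, to 0.0112 points with the rows ranked on that leaf's controls. Of the counts of called rows, 181 alternative values lay within 1.5 times the count given in the report and 57 did not. The 181 include counts of 0 that stayed at 0, so they say less about the comparisons with called rows. The cause of the moves was not tested. DESeq2 called 5 rows at drought day 0, 4 at day 6, 27 at day 9 and 27 at rehydration day 6 in the latest leaf, and 8 at day 6, 2 at day 9 and 7 at rehydration day 6 in the second latest leaf. For the change between day 9 and 2 h in the latest leaf it called 10, of which 2 were higher. Keeping the near-empty library gave 0, 0, 17 and 2 calls at drought days 0, 6 and 9 and at 2 h in the latest leaf, and 0 for the change between day 9 and 2 h. The compared libraries alone gave 12, 8, 0 and 9 calls at these stages and 0 for that change. Without a low-count filter 1 row was called at day 6 in the latest leaf and 1 at day 9 in the second latest leaf. Library totals alone gave 1 call each at day 6 and at rehydration day 6 in the second latest leaf.

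Treated and control libraries were not taken as pairs, since in no stage did all same-numbered pairs correlate above 0.1. With only 2 or 3 pairs in a group, this cutoff cannot show that pairing is absent. With the number as a replicate block the latest leaf had 0, 1, 5 and 11 calls at drought days 0, 6 and 9 and at 2 h, and the second latest leaf had 15 at 2 h. The block changed the count of no other comparison by more than 1.5 times.

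Leaving out each library in turn gave, in the latest leaf, 0 calls throughout at day 0, 0 to 1 at day 6, 0 to 24 at day 9, 6 to 16 at 2 h, 0 to 23 at rehydration day 6, and 1 to 5 for the change between day 9 and 2 h. For the second latest leaf it gave 0 to 8 calls at day 6, 0 to 1 at day 9, 10 to 16 at 2 h, 0 to 1 at rehydration day 3 (the higher values without control replicate 3 at day 9 and without control replicate 2 at rehydration day 3), 0 to 4 at rehydration day 6, and 3 to 8 for that change. An arm left with 1 library was assumed to vary like the other groups. Single named rows kept their call in 272 alternative values and lost it in 84. An earlier form of the quasi-likelihood fit, added after seeing the data, changed no count by more than 1.5 times.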

Other observations

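Among irrigated plants, control replicate 1 had the highest share of counts in the 100 rows in 10 of the 12 control groups and the lowest in 0, while control replicate 3 had the lowest in 9. Among the 11 treated groups with 3 usable libraries, treated replicate 1 was highest in 3 and lowest in 7. What these numbers mark is not stated in the labels.

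The stage at which irrigated plants held their highest mean was drought day 9 for 37 of the 100 rows in the latest leaf and 36 in the second latest leaf. The same stage held the lowest mean for 38 and 28 rows. Rehydration day 6, the last stage sampled, held the lowest mean for 39 rows in each leaf.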
